A study of Homo sapiens with 12 samples.

Results

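The comparison described here asked how medium conditioned by bone marrow stromal cells alters the transcriptome of FLT3-mutant leukemia cells while the FLT3 kinase is inhibited. MOLM-13, an established human acute myeloid leukemia (AML) cell line whose FLT3 gene carries an internal tandem duplication (its genotype label reads WT), was cultured for 15 hr with 3 nM AC220 (quizartinib), a small-molecule inhibitor of FLT3. One group was kept in RPMI with 10% FBS, and the other in hBMSC-CM, a mixture of 50% RPMI and 50% medium in which HS-5, a stromal line of human marrow, had grown. Each of these groups had 3 replicates, so that 6 of the 12 libraries of the series were compared. The other 6 libraries came from the same cells and media with vehicle (DMSO) and were used to estimate the spread and to give the medium effect without drug. Both the leukemia cells and the source of the conditioned medium were single cell lines, and no stromal cells were in the cultures. The study describes its replicates as biological, while the labels do not say how the cultures were kept apart, and the p-values below measure the spread between these libraries.

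FLT3 with an internal tandem duplication signals without its ligand through STAT5, the RAS/MAPK cascade and PI3K, and blocking it withdraws growth and survival signals from the cell. The bone marrow stroma secretes cytokines and growth factors that can engage other receptors on the same cells and feed into the same cascades. Readouts at the RNA level include the feedback inhibitors that each cascade switches on, the transcription factor MYC, and the genes for ribosome assembly, nutrient uptake and DNA replication that accompany growth.

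Total counts lay between 20573090 and 28039168 in the hBMSC-CM libraries with quizartinib and between 19966546 and 27910594 in the RPMI libraries with quizartinib, so that the upper limit allowed by a count of 0 (3 counts, counting error only) was 0.107 to 0.150 CPM (counts per 1e6 counts). The test took in 12998 of the 57353 genes in the table, those whose count and CPM both averaged 1 or more across all 12 libraries. Levels are given as CPM scaled by TMM factors, and differences as log2 fold changes of hBMSC-CM over RPMI (positive where hBMSC-CM was higher) with their standard error (SE). Replicate 1 of hBMSC-CM with quizartinib stood apart from the other two. The chi-square statistic per gene between its counts and theirs was 9.80 and 9.45, against 3.16 between the other two, and mitochondrially encoded genes held 0.683% of its counts, against 0.947% and 0.939%. Among the vehicle libraries, replicate 3 of hBMSC-CM differed most from its group, by 10.5 and 6.78 from replicates 1 and 2, against 3.74 between those. Without it 9208 genes were called between media with quizartinib (9076 with it), 3828 with vehicle (4174) and 5899 for the difference between these effects (5881). Most calls and counts that turned on a single library are given without it. Medians of some gene groups also moved when a library was left out, and only some of these are given. Counts are relative within a library, and in bulk RNA a change in the number of cells that express a gene and a change in RNA per cell cannot be told apart.

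Markers of identity were checked in the 6 libraries. Of 15 myeloid and MOLM-13 markers (among them CD33, MPO, SPI1 and HOXA9), 14 were counted in every library, and their summed level was 2670 to 2820 CPM in hBMSC-CM and 2430 to 2450 CPM in RPMI. Of the 14 that passed the filter, 4 were higher and 6 lower in hBMSC-CM. Of 32 stromal markers, 24 had a mean under 1 CPM, and 13 had no count in any of the 6 libraries, among them COL3A1, LUM, DCN, POSTN, THY1, LOX, IL6 and CXCL12. The summed stromal level was 161 to 175 CPM in hBMSC-CM and 192 to 217 CPM in RPMI, and 1 of the 7 tested stromal markers was higher and 5 were lower in hBMSC-CM. The higher one was IGFBP7 (log2 fold change 0.21), which was not called without RPMI quizartinib replicate 1 (0.119) or with upper-quartile factors, so that none was then higher. COL1A1, a fibrillar collagen, was at 0.841 to 1.12 CPM in hBMSC-CM and 4.34 to 4.83 CPM in RPMI (log2 fold change −2.23), the lower level being that in the conditioned medium. Lymphoid and erythroid markers summed to 27.4 to 32.1 CPM in hBMSC-CM and 16.2 to 20.3 CPM in RPMI, with 15 of 17 under 1 CPM on average and 5 at 0 (CD3E, HBA1, HBA2, HBG1 and ALAS2). Both of the tested markers of this group, CD8A (log2 fold change 1.43) and NKG7 (0.78), were higher in hBMSC-CM.

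Under quizartinib the choice of medium moved most of the transcriptome. With the quasi-likelihood test of edgeR and p-values adjusted by Benjamini-Hochberg (threshold 0.05), 69.8% of the genes tested were called, 35.5% as higher in hBMSC-CM (4613 genes) and 34.3% as lower (4463 genes). Most differences were small, with a median absolute log2 fold change of 0.32 over all genes tested and a median SE of 0.0649 among those called. Increases of at least 2-fold were called for 7.15% of the genes (929) and decreases of that size for 2.72% (354). At 4-fold or more there were 168 increases and 33 decreases. The 3 values of one medium lay entirely above or below those of the other for 71.5% of the genes. These shares are the background against which the counts of the gene groups below are to be read. The gene groups were written with earlier results of these data known, so their counts describe and do not test them.

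**Figure D1:**
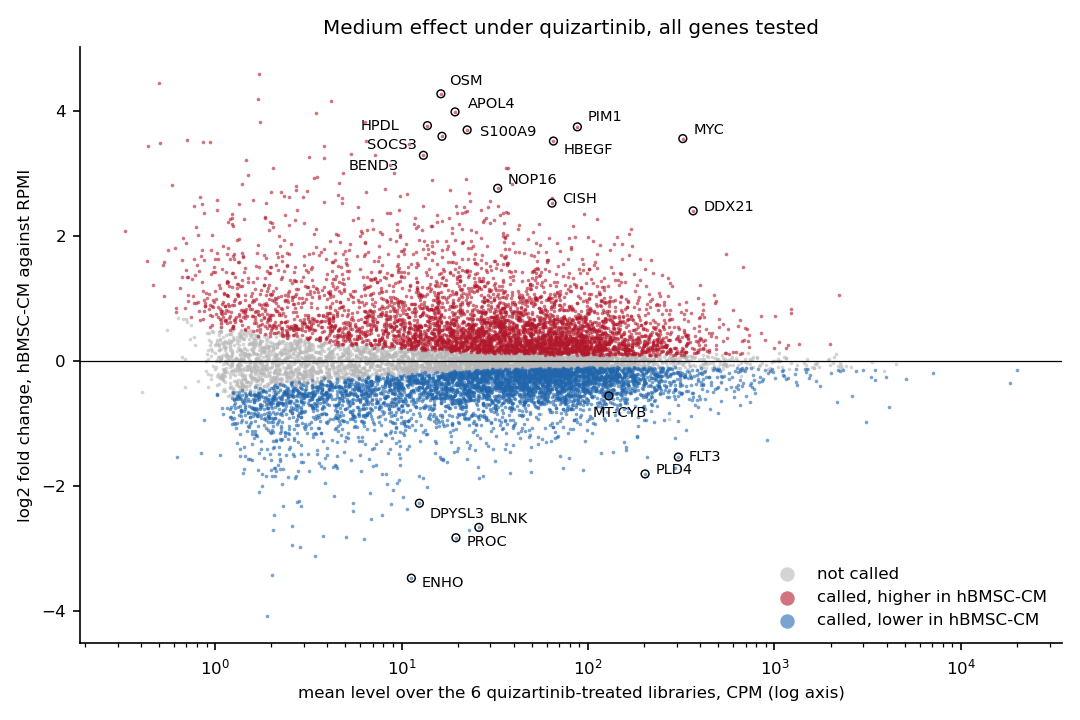
Log2 fold change of hBMSC-CM over RPMI under quizartinib (vertical axis) against the mean level over the 6 quizartinib-treated libraries in CPM (horizontal log axis), 1 point per gene tested, red and blue where called higher or lower. Increases of at least 2-fold (929 genes) outnumber decreases of that size (354 genes), and MYC and DDX21 combine a large increase with a high level.

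Where expression averaged 10 CPM or more, the largest increases included the cytokine gene OSM, the kinase genes PIM1 and PIM2, the signaling inhibitor SOCS3 and MYC. OSM encodes oncostatin M, a cytokine of the IL-6 family, and lies at chr22:30262829-30266851 on GRCh38. It was measured at 35.4, 28.3 and 29.1 CPM in the 3 hBMSC-CM libraries and at 1.55, 1.6 and 1.66 CPM in RPMI. The groups did not overlap, and the hBMSC-CM level was 19.3 times the RPMI level (log2 fold change 4.27, SE 0.11). HPDL, which encodes a 4-hydroxyphenylpyruvate dioxygenase-like enzyme, was at 24.8, 24.6 and 27.6 CPM in hBMSC-CM and 1.36, 2.23 and 2.05 CPM in RPMI (log2 fold change 3.77, SE 0.11). S100A9, a calcium-binding alarmin of maturing myeloid cells, was at 43.5, 41.3 and 40.4 CPM and 3.45, 2.85 and 3.42 CPM (log2 fold change 3.70, SE 0.10). In both genes every hBMSC-CM library exceeded every RPMI library by a wide margin.

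HBEGF, a ligand of the EGF receptor family at chr5:140332843-140346603, was among the tightest of the large increases, with 119, 120.0 and 121 CPM in hBMSC-CM and 9.27, 11.7 and 10.3 CPM in RPMI (log2 fold change 3.52, SE 0.06). SLC29A1 encodes ENT1, the nucleoside transporter that also carries cytarabine into cells. Its level was 67.5, 59.6 and 67.2 CPM in hBMSC-CM and 8.38, 8.03 and 6.2 CPM in RPMI, again without overlap (log2 fold change 3.09, SE 0.08). Further large increases were APOL4 (3.98), SLCO4A1 (3.48), BEND3 (3.29), METRNL (3.08), RGS16 (2.90) and IFRD2 (2.83). APOL4 has close paralogs, SLCO4A1 an antisense gene and IFRD2 shared exons with HYAL3, so their counts are less certain. SLCO4A1 is an organic anion transporter, METRNL a secreted factor and RGS16 a regulator that shortens G protein signals.

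The largest decreases included a secreted peptide, a signaling adaptor and a hypoxia factor. ENHO, which encodes the peptide adropin, was at 2.21, 1.76 and 1.55 CPM in hBMSC-CM and 19.8, 20.3 and 22.2 CPM in RPMI (log2 fold change −3.47, SE 0.12). BLNK, the B cell linker adaptor, whose exons overlap NPM1P25 and ZNF518A, was at 7.57, 7.51 and 6.19 CPM and 46.2, 45.2 and 43.3 CPM (−2.66, SE 0.09). EPAS1, the hypoxia-inducible factor HIF-2 alpha, was at 11.2, 13.8 and 11.2 CPM in hBMSC-CM and 42, 43.6 and 42.7 CPM in RPMI (−1.83, SE 0.08). In these 3 genes the groups were far apart and the replicates of each medium close together. PROC (protein C) was 7.07-fold lower, PCDHGC3, whose exons are shared within the protocadherin cluster, 6.46-fold, and KIF26B, a kinesin, 5.16-fold. The remaining decreases were DPYSL3 (−2.27), MGAT3 (−2.17), PKIG (−2.0), CX3CR1 (−1.87), LAMA2 (−1.86), SDS (−1.83), PLD4 (−1.80), PIK3IP1 (−1.78) and RPS6KA2 (−1.77). CX3CR1 is the fractalkine receptor of monocytes, PIK3IP1 a negative regulator of PI3K and RPS6KA2 the ribosomal S6 kinase RSK3. PKIG and PLD4 overlap a gene on the other strand (ADA and AHNAK2), and whether the counting used strand was not stated.

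Target genes of STAT5 and STAT3 were the first signaling group examined, since STAT5 acts directly below FLT3 and STAT3 below the IL-6 family of cytokines. Of 19 genes listed 18 passed the filter, of which 15 were higher and 1 was lower in hBMSC-CM, with a median log2 fold change of 0.70, where the median over all genes tested was 0.00. PIM1, a serine/threonine kinase that supports survival, was at 157, 160.5 and 172 CPM in hBMSC-CM and 10.7, 13.3 and 12.4 CPM in RPMI (log2 fold change 3.75, SE 0.07). SOCS3, the feedback inhibitor of the IL-6 receptor subunit gp130, was at 30.8, 28.1 and 32.4 CPM and 1.94, 3.02 and 2.54 CPM (3.60, SE 0.13). PIM2, a further kinase of the PIM family, was at 41.1, 36.9 and 39.6 CPM and 5.28, 5.53 and 4.74 CPM (2.91, SE 0.08). In all 3 genes the media did not overlap. BCL6, a transcriptional repressor, was the member that was lower (−0.42, SE 0.07). SOCS2 and BCL2L1 were not called, at −0.07 and −0.09. With vehicle, 13 of the 18 were higher and 1 was lower in hBMSC-CM, where the background was 16.6% higher and 15.5% lower (32.1% in all, 4174 genes).

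CISH, the feedback inhibitor named after its SH2 domain and a classical STAT5 target, was chosen after its values were seen because of its promoter. Its level was 99.1, 115 and 114 CPM in hBMSC-CM and 18.8, 19.1 and 18.9 CPM in RPMI, without overlap (log2 fold change 2.53, SE 0.07). The sequence from 250 bases before to 50 bases after its RefSeq start, chr3:50611725-50612024 on the minus strand of GRCh38.p14, is shown with each match to the palindromic STAT motif TTCNNNGAA in capitals, because it held 4 of them, at positions −241, −230, −129 and −112 relative to the start.
CISH: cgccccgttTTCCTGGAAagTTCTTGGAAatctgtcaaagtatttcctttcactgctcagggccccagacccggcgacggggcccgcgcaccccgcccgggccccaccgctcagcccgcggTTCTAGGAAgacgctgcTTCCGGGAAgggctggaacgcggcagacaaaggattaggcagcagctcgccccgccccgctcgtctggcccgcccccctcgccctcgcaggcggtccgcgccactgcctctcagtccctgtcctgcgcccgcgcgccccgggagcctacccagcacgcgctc
The motif reads the same on both strands and none of these matches overlapped. It was present in 2 of the 14 listed STAT target genes with a promoter sequence (CISH and BCL6, which moved in opposite directions), in 6.23% of the 8998 tested genes with one and in 7.88% of all 27305 promoters of the table. Among genes higher by at least 2-fold the share was 7.42% and among those lower by at least 2-fold 6.60%. Some gene groups described below exceeded the 14.3% of the STAT target list. The share was 33.3% for interferon response genes, 19.2% for RNA polymerases I and III and 15.8% for NF-kB targets. It was 3.75% for nucleolar assembly factors and 3.17% for cytosolic ribosomal proteins. The letters are not in this window of the other 12 target genes, PIM1 and SOCS3 included, and enhancers were not searched.

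JAK kinases and STAT factors themselves moved both ways, with 7 of 16 higher and 6 lower. PTPN6, the phosphatase SHP-1, showed the largest increase, from 71.9 to 75 CPM in RPMI to 221 to 240.1 CPM in hBMSC-CM (log2 fold change 1.63, SE 0.04). JAK3 (0.95) and SH2B3 (0.46), an adaptor that dampens JAK2, were higher as well. JAK2 (−0.91), PIAS3 (−0.63) and JAK1 (−0.57) were lower.

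Receptors for cytokines and growth factors were more often lower than higher in hBMSC-CM. Of 26 tested (32 listed), 15 were lower and 9 higher, with a median log2 fold change of −0.19. FLT3, the target of the drug, was measured at 162, 157 and 151 CPM in hBMSC-CM and 465, 448 and 449 CPM in RPMI, with no overlap (log2 fold change −1.53, SE 0.04, adjusted p = 1.39e-17, edgeR). It thus had the lowest log2 fold change of the receptors in the list. AXL, a receptor tyrosine kinase, was at 25.8 to 28.7 CPM in hBMSC-CM and 66.9 to 74.9 CPM in RPMI (−1.37, SE 0.06). IL3RA, the alpha chain of the IL-3 receptor, was at 47.6 to 49.4 CPM and 105 to 112 CPM (−1.15, SE 0.05). Receptors that were higher were led by IL4R (0.92), IL1RAP (0.56) and FGFR1 (0.52). KIT, IL5RA, LIFR, OSMR, IL1R1 and IL2RG did not pass the filter.

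Among ligands, 6 of 13 tested cytokines and chemokines were higher and 6 lower, and 13 of the 26 in the table did not pass the filter. Beside OSM, the increases were led by the chemokine gene CCL2, at 1.44, 1.62 and 1.69 CPM in hBMSC-CM and 0.116, 0.104 and 0.195 CPM in RPMI, where it was at or near the level of 3 counts so that no fold is given. IL1B, which encodes interleukin-1 beta, was at 4.42, 4.83 and 4.55 CPM and 0.737, 0.695 and 1.22 CPM (2.42, SE 0.18). For each gene all hBMSC-CM values exceeded the RPMI values, at low levels. CCL3 (−1.47), PDGFA (−0.89) and IL16 (−0.55) were lower. CCL3 rests on few counts, at 0.351 to 0.491 CPM in hBMSC-CM and 1.04 to 1.37 CPM in RPMI. NF-kB target genes were split, with 9 of 21 higher and 8 lower. BCL3 (1.66), CXCL8 (2.07) and IL1B led the increases, and TRAF1 (−1.50), CCL3 and TNFAIP2 (−0.69) the decreases.

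Genes that the MAPK cascade switches on, many of them its own inhibitors, were strongly shifted toward hBMSC-CM. Of 26 listed 23 passed the filter, 18 of these were higher and 2 lower, and the median log2 fold change was 1.44. ETV4, an ETS transcription factor of the PEA3 group, was at 12.1, 12.8 and 14.5 CPM in hBMSC-CM and 1.09, 1.5 and 1.37 CPM in RPMI (log2 fold change 3.30, SE 0.12). DUSP6, the phosphatase that switches off ERK, was at 66.7, 70.8 and 70.3 CPM and 18.9, 22.2 and 21.7 CPM (1.72, SE 0.06). CCND1, the gene of cyclin D1, was at 4.45, 5.31 and 4.55 CPM and 0.543, 0.765 and 0.733 CPM (2.80, SE 0.17). The media did not overlap in any of the 3. SPRY4, a Sprouty inhibitor of RAS signaling, was at 1.58 to 1.89 CPM in hBMSC-CM and 0.116 to 0.195 CPM in RPMI, the latter at about the level of 3 counts. IER2, an immediate early gene, was lower (−0.53, SE 0.09), as was DUSP7 (−0.18), whose call was lost without hBMSC-CM quizartinib replicate 1 (log2 fold change −0.129) and without RPMI quizartinib replicate 2 (−0.163). Without hBMSC-CM quizartinib replicate 3, 4 of the group were lower.

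**Figure D2:**
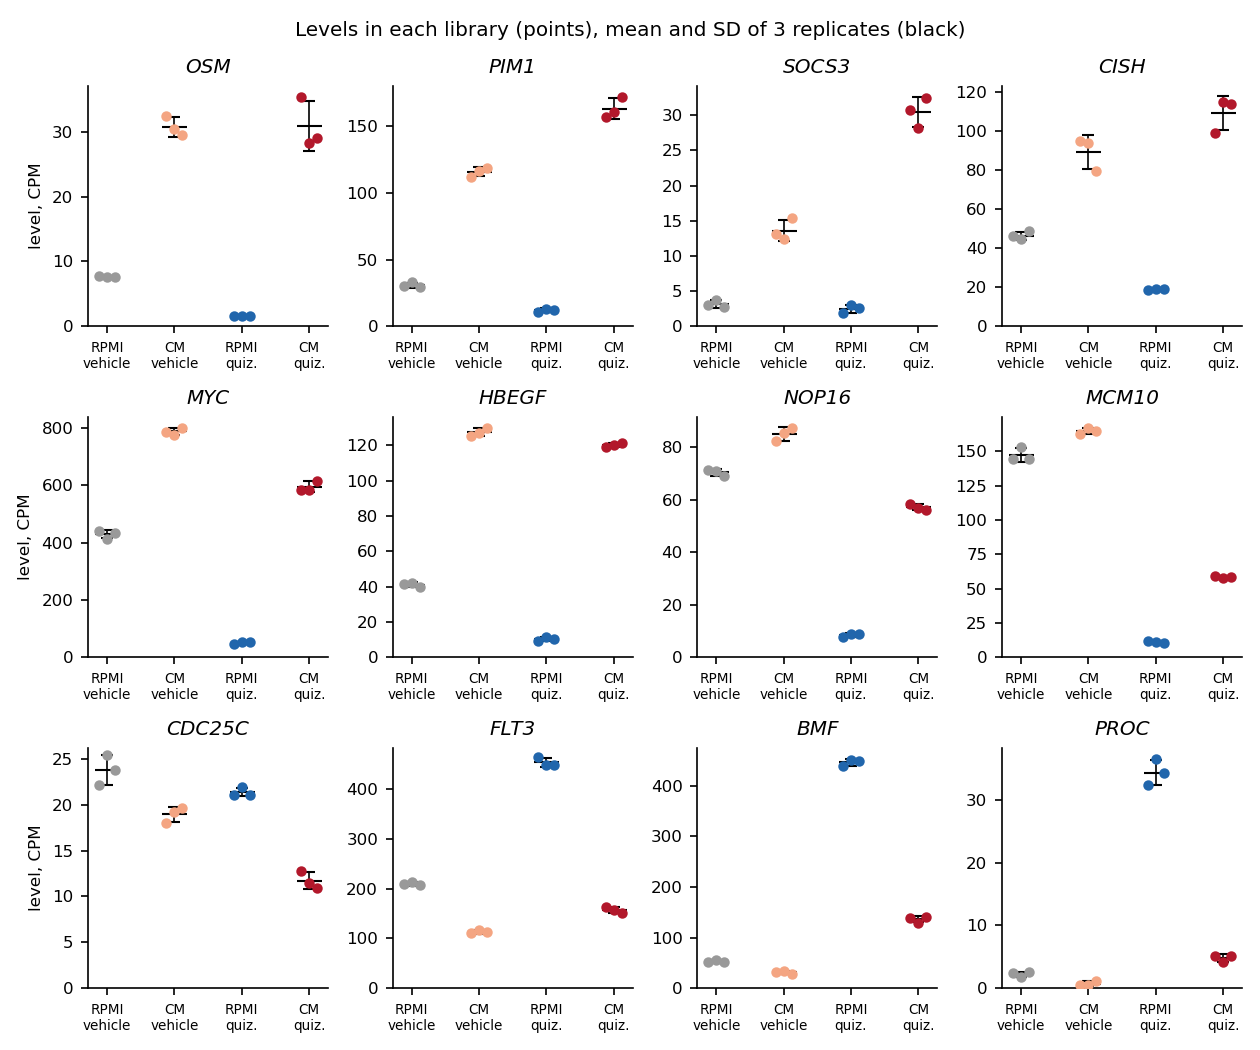
Level in CPM (vertical axes, starting at 0) of 12 genes in each of the 12 libraries (points) with the mean and SD of 3 replicates (black), for RPMI and hBMSC-CM (CM) with vehicle and with quizartinib. OSM, PIM1, SOCS3 and CISH are highest or level with the highest group in hBMSC-CM with quizartinib, NOP16 and MCM10 stay below both vehicle groups there, and FLT3, BMF and PROC peak in RPMI with quizartinib.

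MYC is the transcription factor that drives ribosome assembly and nucleotide supply in growing cells. It was measured at 583, 585 and 616 CPM in hBMSC-CM and 47.2, 51.9 and 52.5 CPM in RPMI, a ratio of 11.8 with no overlap (log2 fold change 3.56, SE 0.05, adjusted p = 1.56e-21, edgeR). An antisense gene, CASC11, overlaps it. Within the MYC, MAX and MXD network 5 of 10 tested genes were higher and 3 lower. MXD1, a partner of MAX that represses MYC target sites, was also higher, at 126, 127 and 127 CPM in hBMSC-CM and 32.8, 32.1 and 31.6 CPM in RPMI (1.98, SE 0.05). MXD4 (−1.47) and MXD3 (−0.85), repressors of the same family, were lower, MAX (0.27), MNT (0.33) and MLX (0.23) were slightly higher, and MLXIP (−0.27) was lower. MYCL and MXI1 were not called (0.10 and 0.09).

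Factors of nucleolar ribosome assembly had the largest share of higher genes among the groups of over 50 members. Of 96 tested (97 listed), 88 were higher in hBMSC-CM (91.7%), 1 was lower, and the median log2 fold change was 0.96. Their summed level was 11940, 11720 and 11770 CPM in hBMSC-CM and 7113, 7018 and 7000 CPM in RPMI. NOP16, an assembly factor of the large subunit, was at 58.3, 56.9 and 56.3 CPM in hBMSC-CM and 7.68, 8.76 and 8.84 CPM in RPMI (log2 fold change 2.76, SE 0.06). DDX21, a nucleolar RNA helicase, was at 613, 624 and 612 CPM and 118, 117 and 115 CPM (2.40, SE 0.04). RRP9, a component of the U3 small nucleolar ribonucleoprotein, was at 49, 40.4 and 46.1 CPM and 9.51, 9.84 and 9.62 CPM (2.23, SE 0.08). In each of them the lowest hBMSC-CM library was more than 4 times the highest RPMI library. The member that was lower was UTP6 (−0.27, SE 0.05), and NPM1, the abundant nucleolar chaperone, was not called (−0.06, SE 0.05).

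Promoters of these genes were searched for CACGTG, the canonical E-box that MYC and MAX bind, which reads the same on both strands. It was found in 30 of the 80 listed assembly factors with a promoter sequence (37.5%), in 10.7% of all tested genes with one and in 7.43% of all promoters of the table. The share was 18.4% among genes higher by at least 2-fold and 9.43% among those lower by at least 2-fold. Some gene groups that were more often lower in hBMSC-CM also exceeded the 10.7% of all tested genes. Lysosome and autophagy genes were at 23.7%, and mTOR complexes and their regulators at 23.3%. Other such groups lay below it, with interferon response genes at 9.52% and cytokine and growth factor receptors at 4.55%. Whether the motif bears on the direction of change was not tested. The promoters of 4 genes with large increases are printed with the motif in capitals, from 250 bases before to 50 bases after the RefSeq start on GRCh38.p14, to show where it lay. RRP9 (chr3:51941855-51942154, minus strand) has it at position −5, SRM (chr1:11059969-11060268, minus strand) at −199, and WDR43 (chr2:28894417-28894716, plus strand) and NME1 (chr17:51153309-51153608, plus strand) within the 50 bases after it. WDR43, a factor of small-subunit assembly with a log2 fold change of 1.99, was chosen after its values were seen.
RRP9: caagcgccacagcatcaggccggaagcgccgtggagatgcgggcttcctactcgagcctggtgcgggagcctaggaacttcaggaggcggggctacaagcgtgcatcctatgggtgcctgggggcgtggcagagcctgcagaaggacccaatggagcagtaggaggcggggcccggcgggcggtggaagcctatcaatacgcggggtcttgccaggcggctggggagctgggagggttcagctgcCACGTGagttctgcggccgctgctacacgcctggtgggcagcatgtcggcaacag
SRM: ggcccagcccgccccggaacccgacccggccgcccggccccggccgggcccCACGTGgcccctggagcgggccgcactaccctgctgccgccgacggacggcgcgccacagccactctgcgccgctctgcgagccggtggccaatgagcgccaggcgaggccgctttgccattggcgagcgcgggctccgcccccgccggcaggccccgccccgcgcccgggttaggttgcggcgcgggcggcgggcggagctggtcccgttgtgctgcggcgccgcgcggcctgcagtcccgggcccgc
WDR43: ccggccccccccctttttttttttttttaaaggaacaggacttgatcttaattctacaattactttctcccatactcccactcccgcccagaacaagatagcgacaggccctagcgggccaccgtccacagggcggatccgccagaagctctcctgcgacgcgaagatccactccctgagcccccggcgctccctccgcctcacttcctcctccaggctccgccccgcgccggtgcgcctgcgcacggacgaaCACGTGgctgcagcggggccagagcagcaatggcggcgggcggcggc
NME1: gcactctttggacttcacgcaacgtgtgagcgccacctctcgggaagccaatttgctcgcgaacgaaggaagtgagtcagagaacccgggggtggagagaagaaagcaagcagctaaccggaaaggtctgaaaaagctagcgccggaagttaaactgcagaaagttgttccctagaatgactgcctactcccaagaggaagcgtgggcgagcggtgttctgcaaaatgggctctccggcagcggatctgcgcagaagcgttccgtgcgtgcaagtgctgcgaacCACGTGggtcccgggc
A match is a description of the letters and says nothing of binding. TSR3, an assembly factor with 2 matches, had a log2 fold change of −0.02, and NOP16 and DDX21, the leading increases, are not among the genes with a match. Genes without a promoter sequence could not be searched, so absence from the matches does not show that the motif is lacking.

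Subunits and factors of RNA polymerases I and III, which make ribosomal RNA, 5S RNA and tRNA, were mostly higher, with 24 of 36 higher, 7 lower and a median of 0.32. POLR3G, a polymerase III subunit, was at 29.1 to 30.7 CPM in hBMSC-CM and 5.62 to 6.78 CPM in RPMI (2.29, SE 0.07). Its paralog POLR3GL moved the other way (−0.48, SE 0.07). CD3EAP (1.93) and POLR1A (1.47), subunits of polymerase I, were higher. BRF1 (−0.45) and GTF3C1 (−0.41), initiation factors of polymerase III, were lower.

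The structural proteins of the cytosolic ribosome did not follow the assembly factors. Of 79 tested, 7 were higher, 21 lower and 51 not called, with a median of −0.074 and a summed level of 92770, 86120 and 86670 CPM in hBMSC-CM and 92210, 93680 and 97120 CPM in RPMI. The count of lower genes depended on single libraries, with 32 without hBMSC-CM quizartinib replicate 1, 4 without replicate 2 and 7 without replicate 3. Without RPMI quizartinib replicate 3, 9 were lower, and with low counts left in the median was 0.00324. RPL36A (1.71) and RPL17 (1.16), among the largest increases, are genes with read-through or duplicate annotations whose counts are uncertain. RPS2 (−0.25), RPSA (−0.22) and RPL10 (−0.21) were lower, RPL10 not without hBMSC-CM quizartinib replicate 2 (−0.144). RPS6, whose phosphorylation is a readout of mTOR, was not called (−0.01, SE 0.05).

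Translation initiation factors leaned toward hBMSC-CM, with 25 of 43 higher, 8 lower (5 without hBMSC-CM quizartinib replicate 2) and a median of 0.21. EIF4EBP1, the mTOR substrate that restrains the cap-binding protein, was at 79.5, 69 and 73 CPM in hBMSC-CM and 28.2, 30.5 and 31.6 CPM in RPMI (log2 fold change 1.30, SE 0.06). EIF4G1, the scaffold of the cap-binding complex, was at 629, 624 and 666 CPM and 301, 314 and 310.3 CPM (1.05, SE 0.05). EIF5A (1.13) was higher as well, as was EIF4A1 (1.08), which shares exons with a read-through transcript. PDCD4, an inhibitor of the helicase eIF4A, showed the largest decrease, with 134 to 138 CPM in hBMSC-CM and 253 to 271 CPM in RPMI (−0.95, SE 0.05). EIF3F (−0.28) and EIF3L (−0.25) were also lower. MKNK1, a kinase of eIF4E, was higher by 0.32 (SE 0.04).

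Transcripts of the mTOR complexes and their regulators were more often lower, with 20 of 38 lower, 10 higher and a median of −0.19. MTOR itself was at 206, 211 and 203 CPM in hBMSC-CM and 193, 196 and 204 CPM in RPMI, overlapping groups with a log2 fold change of 0.06 (SE 0.04) that was not called. AKT1 was not called either (0.08, SE 0.04). The decreases were led by inhibitors of the pathway. SESN3, a sestrin, was at 23.2 to 26.2 CPM in hBMSC-CM and 69.3 to 75.3 CPM in RPMI (−1.58, SE 0.06), DEPTOR, an inhibitory subunit, at 7.99 to 8.39 CPM and 22.7 to 25.7 CPM (−1.56, SE 0.08), and SESN1 was lower too (−0.99). DDIT4 (REDD1), a further inhibitor, moved the other way, with 194 to 214 CPM in hBMSC-CM and 56.5 to 62.7 CPM in RPMI (1.78, SE 0.05). PRR5 (1.02), which has a read-through gene, and NPRL2 (0.56) were the other leading increases.

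Genes that supply amino acids and charge tRNA were higher as groups. Of 23 tRNA synthetases and their scaffolds 21 were higher and 2 lower (CARS, −0.17, not called without hBMSC-CM quizartinib replicate 3 at −0.124, and QARS, −0.25), with a median of 0.66. FARSB (1.42), VARS (1.39) and AIMP2 (1.30) led them. Of 20 tested amino acid transporters 17 were higher and none was lower (1 without hBMSC-CM or RPMI quizartinib replicate 1), at a median of 0.76. SLC7A1, the cationic amino acid transporter, was at 105, 115 and 110.0 CPM in hBMSC-CM and 17.2, 17.6 and 19.6 CPM in RPMI (2.61, SE 0.07), and SLC7A5, the light chain of the leucine transporter LAT1, at 131, 133 and 146 CPM and 29.1, 29.7 and 32.6 CPM (2.17, SE 0.05). Neither overlapped between media. Targets of ATF4 and the serine synthesis genes were less uniform, with 14 of 26 higher and 5 lower. STC2 (2.29) and ALDH18A1 (1.44), the enzyme that commits glutamate to proline, were higher, and VLDLR (−1.13), SESN2 (−0.47) and PYCR1 (−0.32) lower.

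The list of purine and pyrimidine synthesis genes, which also holds the DNA glycosylase gene UNG, was almost wholly shifted. Of its 27 genes 25 were higher in hBMSC-CM, none was called lower, and the median was 0.93. UNG, the glycosylase that removes uracil from DNA, was at 34.9, 32.3 and 32.9 CPM in hBMSC-CM and 6.01, 5.98 and 7.57 CPM in RPMI (2.37, SE 0.07). CTPS1, which makes CTP, was at 85.2, 92.8 and 89.1 CPM and 17.9, 19.1 and 21.6 CPM (2.19, SE 0.07). NME1, a nucleoside diphosphate kinase with a read-through partner, was at 55.5 to 62.8 CPM and 14.2 to 15 CPM (2.01, SE 0.07). The 2 that were not called were IMPDH2 and CTPS2. A lower call was made for 1 gene without RPMI quizartinib replicate 3, hBMSC-CM vehicle replicate 2 or 3, or RPMI vehicle replicate 1 or 3. Of 14 polyamine genes 12 were higher and 1, OAZ2, was lower (−0.48), with a median of 0.65. SRM, spermidine synthase, was at 50.3, 58.9 and 62.8 CPM in hBMSC-CM and 13.6, 14.8 and 15.4 CPM in RPMI (1.97, SE 0.11), and AGMAT (1.53) and MTAP (1.10) were higher.

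**Figure D3:**
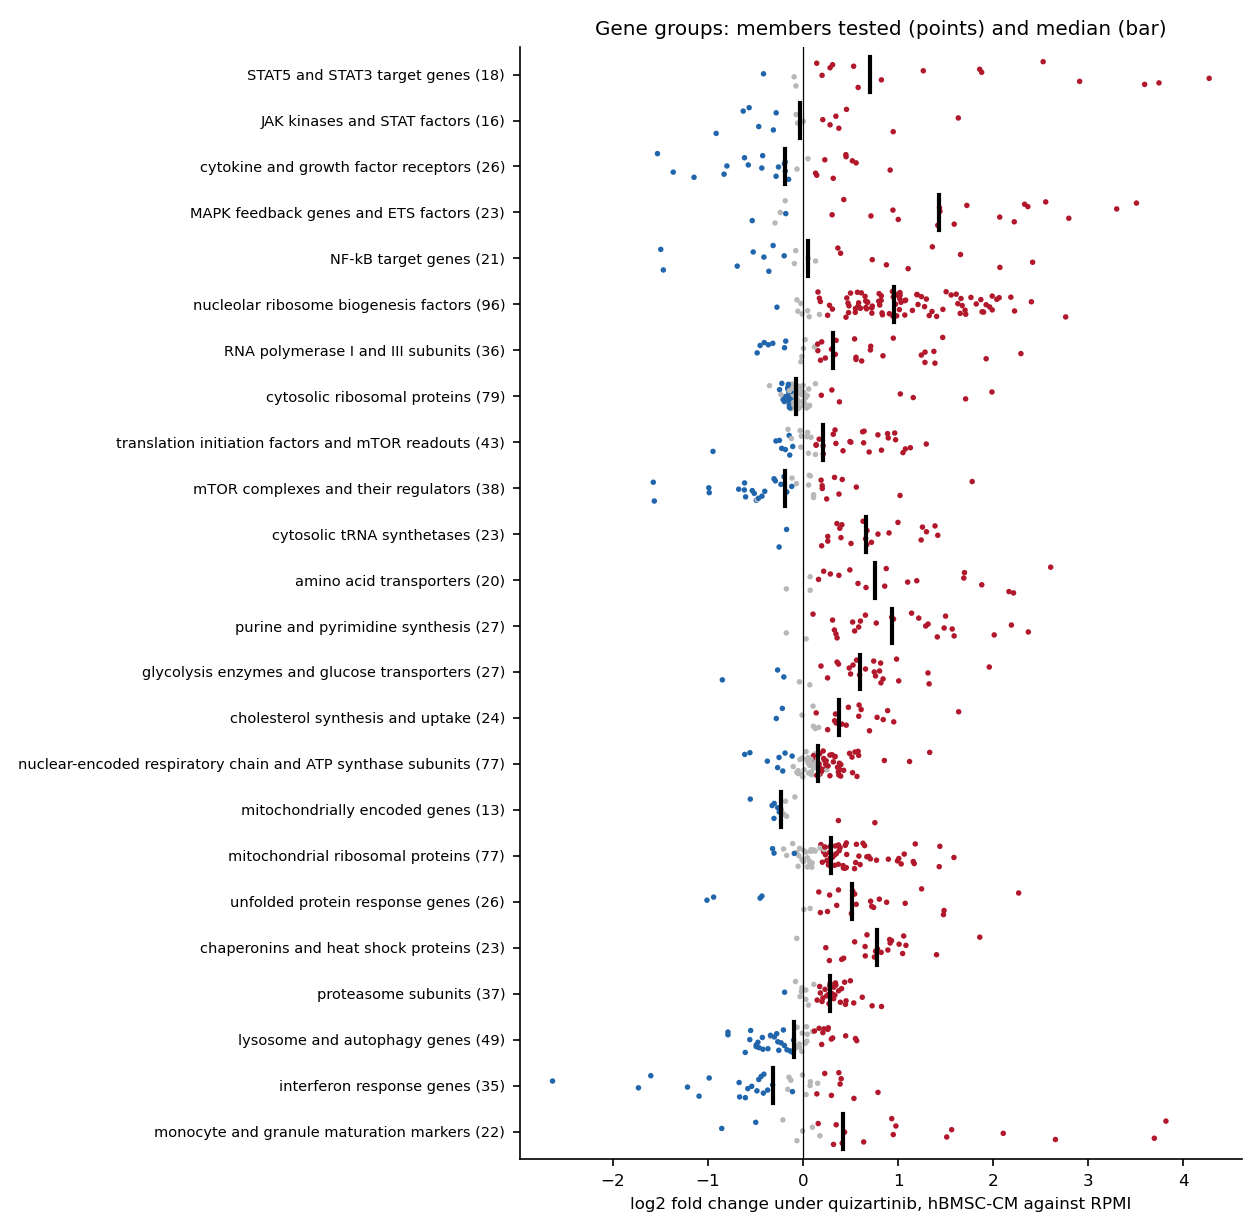
Log2 fold change of hBMSC-CM over RPMI under quizartinib (horizontal axis) of the tested members of 24 gene groups (points, red if called higher, blue if called lower, grey if not called; group size in parentheses) with the group median (black bar). Medians lie near 1 for nucleolar assembly factors (0.96) and the purine and pyrimidine list (0.93). They lie near 0 for cytosolic ribosomal proteins (−0.074) and below 0 for interferon response genes (−0.32).

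Transcripts of cell cycle genes split by the phase in which they act. The share of cells in each phase is not measured by these libraries. By flow cytometry, at an earlier time, the study found a similar G1 arrest under quizartinib in both media. It also reported the arrest in both media at 15 hr, in MOLM-13 cells carrying control or ATM-targeting shRNA. Genes of DNA replication, from origin licensing to the fork, were higher in hBMSC-CM for 46 of 51 members, with 1 lower and a median of 0.76. MCM10, a replication initiation factor, was at 59.1, 58 and 58.2 CPM in hBMSC-CM and 12, 11.4 and 10.3 CPM in RPMI (log2 fold change 2.37, SE 0.05). GINS2, a subunit of the replicative helicase, was at 34.6, 34.6 and 33.3 CPM and 7.99, 7.68 and 8.11 CPM (2.11, SE 0.06). CDC6, which loads the helicase, was at 61.5, 55.7 and 54 CPM and 14.9, 14.4 and 14 CPM (1.98, SE 0.06). In each, hBMSC-CM libraries were above 3 times the RPMI libraries. PRIM2, a primase subunit, was the member that was lower (−0.26, SE 0.05). G1 cyclins, CDKs and E2F factors were higher for 12 of 15 members, with a median of 1.00. CDC25A was at 33.8 to 37.7 CPM in hBMSC-CM and 6.47 to 7.33 CPM in RPMI (2.37, SE 0.07), CCNE1 (cyclin E1) at 13.2 to 16.4 CPM and 2.56 to 3.22 CPM (2.36, SE 0.11), and CDK6 was slightly lower (−0.14, SE 0.05), not called without hBMSC-CM quizartinib replicate 3 (−0.116). Without RPMI quizartinib replicate 3, 2 of the G1 group were lower.

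Mitosis and spindle genes moved in the opposite direction. Of 59 tested, 43 were lower in hBMSC-CM, 3 higher and 13 not called, at a median of −0.30, and their summed level was 6428, 6510 and 6271 CPM in hBMSC-CM and 8272, 8089 and 7869 CPM in RPMI. The decreases were modest in size. CDC25C, the phosphatase that opens the way into mitosis, was at 12.7, 11.5 and 10.9 CPM in hBMSC-CM and 21.1, 21.9 and 21.1 CPM in RPMI (−0.86, SE 0.08), and NEK2 (−0.76) and ASPM (−0.69), kinase and spindle pole protein, followed. The groups did not overlap for CDC25C, and for 45 of the 59 genes every hBMSC-CM library was below every RPMI library. Over all 12998 genes tested this held for 4581. MAD2L1 (0.67), WEE1 (0.56) and CENPM (0.34) were higher. Cell cycle inhibitors and quiescence genes were lower for 10 of 17 and higher for 5, with a median of −0.50. BTG2, an antiproliferative gene, was at 33.7, 34.5 and 35.1 CPM in hBMSC-CM and 109.8, 112 and 118 CPM in RPMI (−1.71, SE 0.05), and CCNG2 (cyclin G2, −1.55) and TXNIP (−0.73) were lower, whereas GAS6 (1.64), E2F5 (1.12) and E2F4 (0.40) were higher.

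With vehicle the gene groups did not part in this way. Only 5 of the 51 replication genes were higher and 8 lower in hBMSC-CM (median −0.023), and of the 15 G1 genes 4 were higher and 4 lower. The interaction of drug and medium, which tests whether the medium effect differed between quizartinib and vehicle, was positive for 42 of the 51 replication genes and 12 of the 15 G1 genes and negative for none. Over all genes tested it was called for 45.2% (5881), positive for 26.1% and negative for 19.2%, so that 57.6% of the calls were positive, against 70.6% with no filter on low counts. Mitosis genes were lower in hBMSC-CM with vehicle also, 36 of 59 (median −0.18), and their interaction was negative for 18 and positive for 6.

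**Figure D4:**
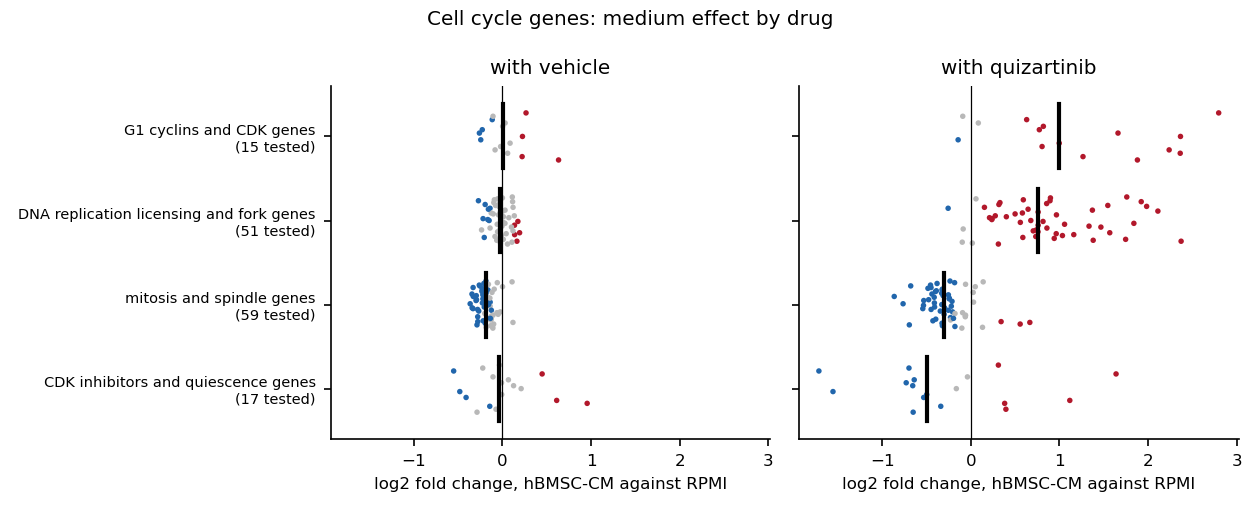
Log2 fold change of hBMSC-CM over RPMI (horizontal axes) of 4 groups of cell cycle genes with vehicle (left) and with quizartinib (right), points per gene in red, blue or grey for called higher, called lower or not called, black bars for medians. The medians of the replication group are −0.023 with vehicle and 0.76 with quizartinib, and those of the mitosis group −0.18 and −0.30.

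Genes of the DNA damage response moved less. Of 29 tested, 16 were higher and 4 lower, with a median of 0.21. ATM, the kinase that senses double-strand breaks, was at 202, 221 and 212 CPM in hBMSC-CM and 217, 205 and 197 CPM in RPMI, overlapping groups with a log2 fold change of 0.04 (SE 0.05) that was not called. CHEK1, the checkpoint kinase of replication, was at 49.9, 47.3 and 45.5 CPM and 24.4, 23.1 and 22.9 CPM (1.02, SE 0.05), though it shares exons with STT3A. PALB2 (1.33), a recombination factor, was higher, and MDM4 (−0.52), GADD45B (−0.50) and UVRAG (−0.41) lower.

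Regulators of apoptosis moved in both directions, and BMF changed most among them. BMF, a BH3-only protein that binds and neutralizes BCL2 relatives, was at 138, 130.0 and 141 CPM in hBMSC-CM and 439, 452 and 449 CPM in RPMI, a decrease of 3.27-fold with no overlap (log2 fold change −1.71, SE 0.05, adjusted p = 6.1e-17, edgeR). An antisense gene overlaps it. Of 11 proapoptotic genes 6 were lower and 3 higher. BBC3 (PUMA, −0.73), BIK (−0.71), PMAIP1 (NOXA, −0.38), BAD (−0.38) and BCL2L13 (−0.10) were also lower, BCL2L13 not without hBMSC-CM quizartinib replicate 2 (−0.0691) or 3 (−0.101). BID (1.13), HRK (1.02) and BAK1 (0.27) were higher, and BAX (−0.10) and BCL2L11 (BIM, −0.16, SE 0.08) were not called. Of the 5 antiapoptotic genes 2 were higher. MCL1, which overlaps ADAMTSL4, was at 292, 299.6 and 287 CPM in hBMSC-CM and 257, 257 and 249.9 CPM in RPMI, a small difference without overlap (0.20, SE 0.04), and BCL2A1, a target of NF-kB, was at 2.44 to 3.03 CPM and 1.01 to 1.32 CPM (1.17, SE 0.17). BCL2 (0.08), BCL2L1 (−0.09) and BCL2L2 (0.11) were not called.

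Of 27 glycolysis genes 22 were higher in hBMSC-CM and 3 lower, with a median of 0.60. SLC2A3, the glucose transporter GLUT3, was at 79.5, 74.7 and 74.4 CPM in hBMSC-CM and 20.2, 18.6 and 20.1 CPM in RPMI (1.96, SE 0.05). LDHA, which reduces pyruvate to lactate, was at 370.3, 397 and 386 CPM and 154, 153 and 152 CPM (1.33, SE 0.07), and the lactate carrier SLC16A1 was higher (1.31). These steps of uptake, reduction and export all lay above the RPMI range. PFKM (−0.85), the muscle form of phosphofructokinase, PDK3 (−0.27) and PFKFB4 (−0.20) were lower. The call of PFKFB4 was lost without hBMSC-CM quizartinib replicates 2 or 3 (−0.135 and −0.182) and without RPMI quizartinib replicate 1 (−0.199).

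Of 24 cholesterol synthesis and uptake genes 17 were higher and 2 lower, at a median of 0.38. DHCR7 (1.64), which completes cholesterol, and SQLE (0.95) led them, and TM7SF2 (−0.28) and SREBF2 (−0.22) were lower, the call of TM7SF2 being lost without hBMSC-CM quizartinib replicate 1 (−0.218) or 2 (−0.223). LXR target genes were higher for 6 of 10, with none lower (1 without hBMSC-CM quizartinib replicate 3, RPMI quizartinib replicate 1 or RPMI vehicle replicate 1 or 2). ABCA1, the cholesterol exporter, was at 46.3, 49.2 and 48.3 CPM in hBMSC-CM and 16.8, 16.1 and 14.6 CPM in RPMI (1.60, SE 0.07), and SCD (1.41), SREBF1 (1.02), SMPDL3A (0.73), APOC1 (0.72) and LPCAT3 (0.34) were higher. MYLIP, NR1H3, NR1H2 and APOE were not called.

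Respiratory chain genes encoded in the nucleus were shifted by little. Of 77 subunits of the chain and ATP synthase 40 were higher and 8 lower, with a median of 0.16. CYCS, cytochrome c, was at 177, 176 and 168 CPM in hBMSC-CM and 70.7, 67.8 and 68.5 CPM in RPMI (1.33, SE 0.05), and ATP5MC1, a subunit of the ATP synthase ring, at 39.1 to 43.4 CPM and 17.5 to 19.9 CPM (1.12, SE 0.06). They were the largest increases, followed by UQCR11 (0.86). NDUFA13 (−0.61) and NDUFA7 (−0.56), each with a read-through gene, and NDUFV2 (−0.38) were lower. The call of NDUFA7 was lost without hBMSC-CM quizartinib replicate 1 (−0.480) or RPMI quizartinib replicate 1 (−0.430). NDUFA7 and NDUFA13 averaged only 1.33 and 3.54 CPM over the 6 libraries. UQCR11 and NDUFV2 also share exons with other genes. Mitochondrial ribosomal proteins were higher for 50 of 77 and lower for 3 (5 without hBMSC-CM quizartinib replicate 1), at a median of 0.29. MRPS26 (1.59), MRPL17 (1.44) and MRPL12 (1.43) were in the lead. MRPL12 averaged only 1.43 CPM over the 6 libraries and shares exons with another gene.

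The 13 protein-coding genes of the mitochondrial genome did not rise with their nuclear partners. Their summed level was 6627, 8770 and 8764 CPM in hBMSC-CM and 10120, 9551 and 9505 CPM in RPMI, 6 were lower and 2 higher, and the median was −0.23. MT-CYB, cytochrome b, showed the largest decrease, with 79.1, 119.6 and 117 CPM in hBMSC-CM and 160.2, 155 and 146 CPM in RPMI (−0.55, SE 0.13). Replicate 1 of hBMSC-CM was the lowest, and without it MT-CYB remained called at −0.378 while MT-ND3, MT-ND5, MT-CO1, MT-CO2 and MT-CO3 lost their call, which left 1 gene lower. Without RPMI quizartinib replicate 1, 3 were lower. MT-ND6 (0.76), on the other strand of the genome, and MT-ATP8 (0.37), which overlaps MT-ATP6, were higher, and the media overlapped for MT-ATP8, whose call was lost without hBMSC-CM quizartinib replicate 2 (0.294) or 3 (0.283) and without RPMI quizartinib replicate 2 (0.307) or 3 (0.374). With vehicle all 13 were lower in hBMSC-CM (median −0.58), and the interaction was positive for 7 and negative for none.

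Chaperones and the machinery of protein folding were higher. Of 23 chaperonins and heat shock proteins 22 were higher and none lower, with a median of 0.78 and a summed level of 13270, 13170 and 12820 CPM in hBMSC-CM against 8144, 7977 and 7995 CPM in RPMI. FKBP4, a cochaperone of HSP90, was at 189.6, 177 and 178 CPM and 49.1, 50.5 and 50.5 CPM (1.86, SE 0.04), and HSPE1 (1.41), which has a read-through gene, and STIP1 (1.08) followed. Genes of the unfolded protein response were higher for 20 of 26 and lower for 4, with a median of 0.515. XBP1, the factor that is spliced under stress of the endoplasmic reticulum, was at 191, 181 and 181 CPM in hBMSC-CM and 38.7, 37.2 and 39 CPM in RPMI (2.27, SE 0.04), and SDF2L1 (1.48) and MANF (1.48) were higher, whereas PPP1R15A (GADD34, −1.01), the stress sensor ERN1 (−0.94) and SYVN1 (−0.45) were lower. Of 37 proteasome subunits 28 were higher and 1 lower (PSMB10, −0.19, not called without hBMSC-CM quizartinib replicate 2, −0.112, or RPMI quizartinib replicate 3, −0.133), at a median of 0.28. PSME3 (0.83), PSME2 (0.73) and PSMD1 (0.62) led them.

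Lysosome and autophagy genes went the other way. Of 49 tested, 24 were lower and 12 higher, with a median of −0.099. ULK1, the kinase that starts autophagy, was at 17.9, 20.8 and 21.6 CPM in hBMSC-CM and 34.1, 35 and 34.8 CPM in RPMI (−0.79, SE 0.09). TFEB, the transcription factor of lysosome genes, was at 35.1, 33.5 and 34.1 CPM and 57.4, 59.6 and 60.9 CPM (−0.79, SE 0.05). Neither overlapped, and GABARAPL1 (−0.61) was lower too, whereas MITF (0.56), CTSC (0.55) and GLA (0.45) were higher. With vehicle 15 of the 49 were higher and 1 lower, and the interaction was negative for 22 and positive for 3.

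Interferon response genes were lower in hBMSC-CM for 19 of 35 and higher for 8, with a median of −0.32, and 15 of the 50 listed did not pass the filter. OAS1, which senses double-stranded RNA, was at 16.8, 15 and 15.6 CPM in hBMSC-CM and 51, 46.3 and 46.6 CPM in RPMI (−1.60, SE 0.07). IFIT2, an antiviral gene, was at 0.841, 0.527 and 0.75 CPM and 5.08, 4.03 and 4.3 CPM (−2.64, SE 0.20), low levels that did not overlap, and IFIT3 was lower (−1.73). WARS (0.79), USP18 (0.54) and PARP9 (0.40) were higher. HLA class I presentation genes were lower for 8 of 16 and higher for 3, with a median of −0.21 (−0.122 without hBMSC-CM quizartinib replicate 2). HLA-E (−0.40) and TAP1 (−0.38) were lower, and NLRC5 (0.66), the coactivator of these genes, PSMB8 (0.37) and TAP2 (0.28) were higher.

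CIITA, the coactivator of HLA class II genes, was lower in hBMSC-CM, at 28.6, 31.3 and 34 CPM against 57.6, 57 and 56.5 CPM in RPMI (−0.87, SE 0.06), while 8 of the 13 genes of its list were higher and 4 lower. HLA-DPB1 (0.92), HLA-DOB (0.79) and HLA-DPA1 (0.69) led the increases, at low levels (3.14 to 3.73 CPM for HLA-DPB1 in hBMSC-CM), and CD74 (−0.44) and RFX5 (−0.21) were lower. Without hBMSC-CM quizartinib replicate 1, 5 of the list were higher. Of 5 tested APOL genes APOL4 was far higher and APOL6 slightly so (0.11), APOL2 (−0.32) and APOL3 (−0.40) were lower and APOL1 (−0.13) was not called. APOL6 lost its call without hBMSC-CM quizartinib replicate 1 (0.0923), RPMI quizartinib replicate 2 (0.111) or 3 (0.0653), hBMSC-CM vehicle replicate 2 (0.106) or RPMI vehicle replicate 1 or 3 (both 0.106), and APOL3 without hBMSC-CM quizartinib replicate 2 (−0.355) or RPMI quizartinib replicate 2 (−0.403).

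Markers of monocyte and granule maturation were higher for 15 of 22 and lower for 2, at a median of 0.43, and 8 of the 30 listed, CD14 and CD163 among them, did not pass the filter. S100A8, the partner of S100A9, was at 8.34, 7.64 and 7.69 CPM in hBMSC-CM and 0.97, 1.56 and 1.17 CPM in RPMI (2.66, SE 0.15), and SLAMF8, a receptor of activated macrophages, at 10.4, 12 and 13.1 CPM and 0.582, 0.834 and 1.12 CPM (3.82, SE 0.20). LYZ, lysozyme, was at 1068, 953 and 1009 CPM and 359, 347 and 356 CPM (1.51, SE 0.05). None of these overlapped. CD36 (−0.86) and MARCO (−0.50), scavenger receptors, were lower, MARCO not without hBMSC-CM quizartinib replicate 1 (−0.321) or 2 (−0.486) or RPMI quizartinib replicate 1 (−0.464) or 3 (−0.438). Of 18 lineage transcription factors 9 were higher and 4 lower. EGR1 (2.37), NFE2 (2.33) and CEBPD (1.51) were higher, FLI1 (−0.59), IKZF1 (−0.56) and ZEB2 (−0.30) lower. EGR1 varied within hBMSC-CM, at 9.46, 15.6 and 16.9 CPM, the lowest in replicate 1, against 2.4, 3.2 and 2.29 CPM in RPMI.

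Genes of the HOXA and MEIS1 program, on which leukemias with KMT2A fusions depend, were higher for 3 of 11 and lower for 5. HOXA11 (0.52), DOT1L (0.49) and MEN1 (0.26) were higher, and JMJD1C (−0.56), KMT2A (−0.52) and PBX3 (−0.47) lower. Adhesion and niche genes were higher for 8 of 17 and lower for 7. ICAM1 (1.36), ITGAM (0.93) and ITGB2 (0.91), ligand and subunits of leukocyte integrins, were higher. ITGAL, the alpha chain of LFA-1, was lower, at 532, 536 and 552 CPM in hBMSC-CM and 1278, 1295 and 1291 CPM in RPMI (−1.25, SE 0.04), as were CD47 (−0.65) and ITGB7 (−0.59). CXCR4, the receptor that holds cells in the marrow, was not called (−0.04, SE 0.04).

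The medium effect was then set beside the same contrast with vehicle, which shares no library with it. Of the 4613 genes higher in hBMSC-CM under quizartinib, 1783 (38.7%) were also higher with vehicle, 82.5% of the 2162 called so there. Of the 4463 lower genes 1524 (34.1%) were lower with vehicle as well, 75.7% of 2012. Calls in opposite directions were made for 155 of the higher genes (3.36%) and 106 of the lower genes (2.38%). The effect was larger with the drug for the most part. The 929 genes higher by at least 2-fold had a median log2 fold change of 1.41 with the drug and 0.26 without it, and their interaction was positive for 857 of them (92.2%). The 354 genes lower by at least 2-fold had medians of −1.28 and −0.53, and the interaction was negative for 245 (69.2%). Both sets were chosen on the contrast with quizartinib, so these medians describe them and do not test them.

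**Figure D5:**
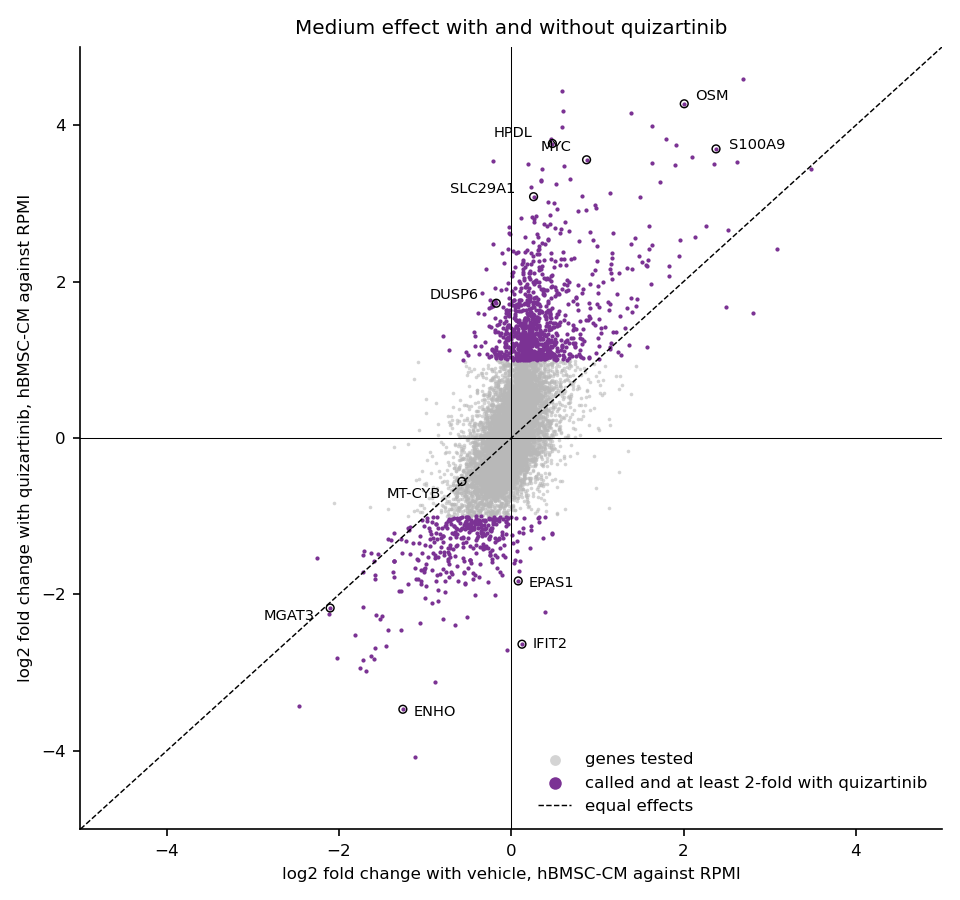
Log2 fold change of hBMSC-CM over RPMI with quizartinib (vertical axis) against that with vehicle (horizontal axis), 1 point per gene tested, purple where called and at least 2-fold with quizartinib, dashed line where both effects are equal. Most purple points lie farther from 0 on the vertical than on the horizontal axis, MGAT3 and MT-CYB lie near the dashed line, and EPAS1 and IFIT2 are called with quizartinib and not with vehicle.

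Genes near the extremes of the interaction show how the effects differed. HPDL was at 41.3, 42.5 and 44.2 CPM in hBMSC-CM and 31, 29.3 and 31.4 CPM in RPMI with vehicle, so that its medium effect was 0.48 without and 3.77 with the drug (interaction 3.29). SLAMF8 (interaction 3.36), ETV4 (2.96), BEND3 (2.94) and SLCO4A1 (2.87) behaved likewise. Among the decreases EPAS1 was at 5.08 to 5.94 CPM and 4.79 to 6.04 CPM with vehicle, where the media overlapped, and had an interaction of −1.91. TCP11L2 (−1.50), FCRLA (−1.36), RPS6KA2 (−1.40) and VLDLR (−1.35) completed the 5 most negative where the mean over the 12 libraries was 10 CPM or more. For MGAT3 the values lay close together, with −2.17 under quizartinib and −2.10 with vehicle (interaction −0.07, not called). ABCA1 had a larger effect without the drug (2.80) than with it (interaction −1.21).

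The vehicle groups also place the levels reached. Means were compared without a test or a margin, and both sets were chosen on the contrast with quizartinib. The shares below describe these sets, and those over all genes tested are not given. Of the 929 genes higher by at least 2-fold, 637 (68.6%) had a mean level in hBMSC-CM with quizartinib that did not exceed that of RPMI with vehicle, NOP16, MCM10 and SLC29A1 among them. The other 292 (31.4%) exceeded it, for example PIM1 (29.3 to 33.1 CPM in RPMI with vehicle), SOCS3 (2.72 to 3.79 CPM), S100A9 (4.01 to 5.52 CPM) and MYC (413 to 440.5 CPM). Of the 354 genes lower by at least 2-fold, 238 (67.2%) still had a higher mean than in RPMI with vehicle, such as BMF (51.8 to 55.4 CPM) and PROC (1.72 to 2.54 CPM), and 116 (32.8%) did not, FLT3 (206 to 213 CPM) among them.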

How the data were processed

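RNA-seq counts of 12 MOLM-13 libraries were used, 3 replicates for each of 4 groups, named from the titles of the samples. The authors isolated RNA, selected poly-A RNA, removed adapters and reads under 50 bases with BBDuk, aligned with STAR 2.6.0a to the Ensembl human genome (hg38) and deposited raw counts per gene, adding identifiers that share a name. Whether strand was used in counting is not given in the sources used here, so overlapping and antisense genes are uncertain, and reads of near-identical copies cannot be reassigned.

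Genes whose count and CPM both averaged 1 or more across all 12 libraries entered edgeR 4.0.16 (R 4.3.3): TMM factors, 1 model with 4 group means and 8 residual degrees of freedom, quasi-likelihood test, two-sided, Benjamini-Hochberg adjustment over 12998 genes, threshold 0.05. The authors used limma. The contrasts were the medium effect with quizartinib, the medium effect with vehicle, and their difference. Depth was 19966546 to 31546104 counts per library. The median SE among called genes was 0.0649, which includes the spread between replicates. In the 12 replicate pairs the chi-square statistic per gene was 2.66 to 10.5, where sampling noise gives about 1, so no library appeared to be deposited more than once. Scripts were tested on simulated counts.

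The members, the 45 gene lists and the rule for naming genes were chosen with earlier results of these data known. The rule took the 15 largest changes in each direction among called genes that averaged 10 CPM or more without overlap, the 3 largest called changes of each list in each direction, all members of lists of up to 13, genes whose proteins the study follows, and the 5 largest interactions in each direction. CISH, WDR43, TSR3, NPM1, CXCR4 and genes named only as not called, as not tested or as markers were added after their values were seen. The text need not print every gene the rule takes, and some are not reported here, though the counts of their lists include them. Gene positions came from GENCODE for GRCh38 by name (11492 genes, 88.4%, with 1 match), and promoters from RefSeq on GRCh38.p14 (8998 tested genes matched). Alternatives were other scaling factors, filters and tests, only the 6 quizartinib libraries, a replicate block and each library left out.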

Additional observations from a re-analysis of the deposited data

Results flagged for a closer look

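The medium effect differed between quizartinib and vehicle, by the interaction term of the same model, for 5881 genes (45.2% of those tested). For 261 genes the media differed, by calls in both contrasts, in opposite directions with and without the drug. Of these 155 were higher in hBMSC-CM with quizartinib and lower with vehicle, and 106 the reverse. They made up 3.36% of the genes called higher and 2.38% of those called lower with quizartinib.

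Among the genes reported here, the positive interactions of this kind were those of RPL36A (1.94), DUSP6 (1.90), MT-ND6 (1.89), EIF4A1 (1.36), CHEK1 (1.16), USP18 (1.01), MT-ATP8 (0.977) and CENPM (0.620). DUSP6 was −0.17 with vehicle and 1.72 with quizartinib, and CHEK1 −0.14 and 1.02. RPL36A, EIF4A1, CHEK1 and MT-ATP8 share exons with other genes and MT-ND6 lies on the strand opposite to most mitochondrial genes, so their counts are uncertain. The negative interactions were those of VLDLR (−1.35), IER2 (−0.907) and PFKFB4 (−0.511). VLDLR was 0.23 with vehicle and −1.13 with quizartinib. What lies behind these differences was not tested.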

How the results depend on the processing

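The number of genes called between media with quizartinib was 9076 and lay between 7668 (mean CPM of at least 5) and 10097 (no filter on low counts) over the scaling factors, filters and tests, and between 8478 and 9208 with 1 library dropped at a time. With vehicle it was 4174, and 3278 to 4338 with a library left out. The interaction gave 5881, and 5406 to 5899 with a library left out. None of these moved by over 1.5 times, and no gene called in both fits changed sign. Of the calls with quizartinib 50.8% were higher in hBMSC-CM, 57.1% without the filter and 45.7% under upper-quartile scaling. Of the interaction calls 57.6% were positive and 70.6% without the filter. The median of all genes shifted by at most 0.0771 (no filter).

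The replicate numbers did not pair the libraries, since the deviations of same-numbered libraries correlated at −0.00064, −0.0332 and 0.0215 with quizartinib. With the replicate block 8962, 3953 and 5679 genes were called for the medium effect under the drug, under vehicle and for their difference, and 2 of the 283 named genes (MT-CO2 and MRPS27) lost their call.

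Of 5349 values of named genes under the alternatives 76 lost and 32 gained a call and none of those called changed direction. Of 2565 list counts and medians 188 moved, by more than 1.5 times or beyond the spread of replicates, 47 of them without the filter and 36 with upper-quartile factors. List medians near 0 changed sign without the filter for JAK and STAT genes (0.050), cytosolic ribosomal proteins (0.00324) and MOLM-13 markers (0.0064), with a mean CPM of at least 5 for cytokines (0.26) and APOL genes (0.0995), and without hBMSC-CM quizartinib replicate 3 for NF-kB targets (−0.0146). Single genes under about 1 CPM in a group rest on few counts, and small differences there were not detectable at this depth.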

Other observations

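Families that the report does not describe were counted by gene symbol after the data had been seen, for hBMSC-CM against RPMI with quizartinib. Of 53 tested histone genes 42 were higher and 3 lower in hBMSC-CM (median log2 fold change 0.39), in libraries selected for poly-A RNA. Of 71 splicing factor genes (HNRNP, SRSF, SNRP and SF3 symbols) 40 were higher and 6 lower (0.27), and of 21 host genes of small nucleolar RNAs 13 were higher and 2 lower (0.53). Of 193 SLC transporter genes 99 were higher and 49 lower (0.16). Lysine demethylase and methyltransferase genes (KDM and KMT symbols) went the other way, with 2 of 27 higher and 19 lower (−0.28), as did ZNF zinc finger genes, with 73 of 351 higher and 145 lower (−0.13), and TRIM genes, with 10 of 41 higher and 23 lower (−0.145).

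Long noncoding RNAs were more often lower, with 94 of 428 higher and 190 lower (median −0.20), against 3948 of 10476 protein-coding genes higher and 3663 lower (0.011). Calls moved with gene length. In the third of genes with the shortest exonic length (median 2480 bases) 42.1% were higher and 24.7% lower, and in the third with the longest (median 9740 bases) 31.0% were higher and 43.9% lower. The part of gene length and of the makeup of families in these counts was not tested.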
